A study of Saccharomyces cerevisiae with 36 samples.

Results

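The 36 genes described here are the open reading frames whose standard yeast name is ATG followed by a number, out of 6295 open reading frames measured in Saccharomyces cerevisiae. They were picked by name alone, through the gene symbols that RefSeq pairs with the systematic names of the table. The annotation lists 37 such symbols, and ATG44 had no row that could be matched.

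ATG genes encode the machinery of macroautophagy, in which a double membrane grows around cytoplasm or an organelle, closes into an autophagosome and delivers its content to the vacuole for breakdown. The Atg1 kinase complex starts the process, vesicles carrying Atg9 and a phosphatidylinositol 3-kinase supply and mark the membrane, and the ubiquitin-like proteins Atg8 and Atg12 are conjugated to drive its expansion. Receptors tie selected cargo to Atg8. In growing yeast the machinery also runs the cytoplasm-to-vacuole targeting (Cvt) pathway, which carries vacuolar hydrolases, and starvation raises the transcripts of several of its genes.

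RNA from log-phase cultures in the rich medium YPD at 30 °C was compared on 36 arrays with a pair of dyes, and ethanol was added to 5% by volume for the stressed cultures. The laboratory strain was DBY8268, of the S288c background, and the wild strains were YPS163 and M22. Each was measured on 3 arrays at 30 min, with array 1 of each also serving as the 30 min point of a time course that has 1 array per strain at 15, 45 and 60 min. In the YPS163 background the same 30 min exposure was measured in YPS163 MATa, a strain of mating type a, and in the deletion strains hap1D and msn2D, 3 arrays each. The titles give mating type a for hap1D and no mating type for msn2D. MSN2 encodes a zinc-finger activator of general stress genes and HAP1 a haem-responsive activator of respiratory genes. Log-phase arrays without ethanol, 3 per comparison, had DBY8268 as the reference for each wild strain and YPS163 MATa as the reference for hap1D. The labels name 1 strain per deletion, so each deletion result is that of 1 strain. The series text states biological triplicates for the groups of 3.

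Every value is a log2 ratio. Ethanol values are ethanol over unstressed cells of the same strain, and log-phase values are the named strain over its reference; both directions and the base of 2 were read from the values and are likely, not certain. Because the ratios compare pooled RNA of whole cultures, a change in every cell and a change in some cells cannot be told apart. Differences between 2 ethanol responses are differences of log2 ratios, not of transcript levels. A call means an adjusted p under 0.05 in limma, and the share of all rows called stands beside each first count as background.

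Arrays carried 4981 to 6093 values, with array medians from -0.08 to 0.17. Array 3 of YPS163 MATa in ethanol correlated at 0.164 with its group as deposited and at 0.747 with its values moved by 1 row, against 0 of 26 other replicated arrays that fitted better away from their place. It was left out, so YPS163 MATa has 2 arrays in ethanol. ATG values were uneven within 3 groups. Array 1 of YPS163 MATa was the higher of the pair for 30 of 33 ATG genes (53.1% of all rows), and array 1 of hap1D in ethanol was the highest for 27 of 36 (35.2% of all rows). In log-phase YPS163 over DBY8268, array 2, the dye-exchanged array, had an ATG median of 0.32 against -0.72 and -0.35 (arrays 1 and 3). The deleted genes matched their labels: MSN2 had a value on 0 of 3 msn2D arrays and on 33 of 33 others, and HAP1 on 0 of 3 hap1D ethanol arrays and on 30 of 30 others. HSP12, a membrane heat shock protein gene controlled by Msn2, stood at 7.07 and 7.25 in YPS163 MATa and at -0.22 and 0.48 on the 2 msn2D arrays with a value.

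Most ATG genes rose in ethanol in every strain that carries MSN2. In DBY8268, 24 of 35 tested ATG genes rose and 2 fell, where 28.6% of all rows rose and 31.0% fell (59.6% in either direction). In M22, 26 of 35 rose and 1 fell, where 32.3% of all rows rose and 29.7% fell (62.0% in either direction). In YPS163, 25 of 35 rose and 1 fell, where 30.4% rose and 30.0% fell (60.3% in either direction). The median ATG ratio was 1.16, 1.12 and 1.20 in these strains, and the median of all tested rows was 0.02, 0.03 and 0.02. In YPS163 MATa 19 of 33 rose and 1 fell (24.3% and 27.6% of all rows, 51.9% in either direction), with a median of 1.03 (0.58 without array 1), and in hap1D 23 of 36 rose and 2 fell (26.7% and 27.7% of all rows, 54.3% in either direction), with a median of 0.85. In msn2D 14 of 36 rose and 3 fell, namely ATG5, ATG12 and ATG26 (21.0% and 22.4% of all rows, 43.4% in either direction), with a median of 0.26. Without array 1 the number called in YPS163 MATa went from 20 to 11, and leaving out 1 msn2D array gave 9 to 11 called in place of 17.

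Of the 36 genes, 21 rose in all 3 of DBY8268, M22 and YPS163, and 18 of these had a mean of at least 1 in each. The 3 others were ATG13, ATG16 and ATG21. Across all 6 ethanol groups, ATG7, ATG8, ATG10, ATG13, ATG20, ATG22, ATG31, ATG33, ATG41, ATG42 and ATG45 rose, 11 genes in all. The share of all rows that rose jointly in several groups was not worked out, so these counts have no background beside them. In msn2D the limma calls of ATG7, ATG10 and ATG41 were near the threshold (adjusted p = 0.0404, 0.0454 and 0.0453). Each was lost in 5 alternative fits, and the msn2D call of ATG20 (adjusted p = 0.0206) in 4. ATG5 fell in all 6 groups, and ATG32, ATG36 and ATG38 were called in none without the block described next. Arrays of the same number deviated together among DBY8268, M22 and YPS163, and a fit with the replicate block for these strains called 28, 28 and 29 ATG genes in place of 26, 27 and 26. The added calls were ATG18 (0.33, adjusted p = 0.0101) and ATG26 (-0.30, adjusted p = 0.0496) in DBY8268, ATG27 (0.19, adjusted p = 0.0459) in M22, and ATG12 (-0.43, adjusted p = 0.0168), ATG23 (0.46, adjusted p = 0.0252) and ATG38 (0.48, adjusted p = 0.0205) in YPS163. Calls named for single genes elsewhere are those without the block. ATG40 had no value on the 30 min arrays of DBY8268, M22 and YPS163 and is described only in YPS163 MATa, hap1D and msn2D.

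**Figure D1:**
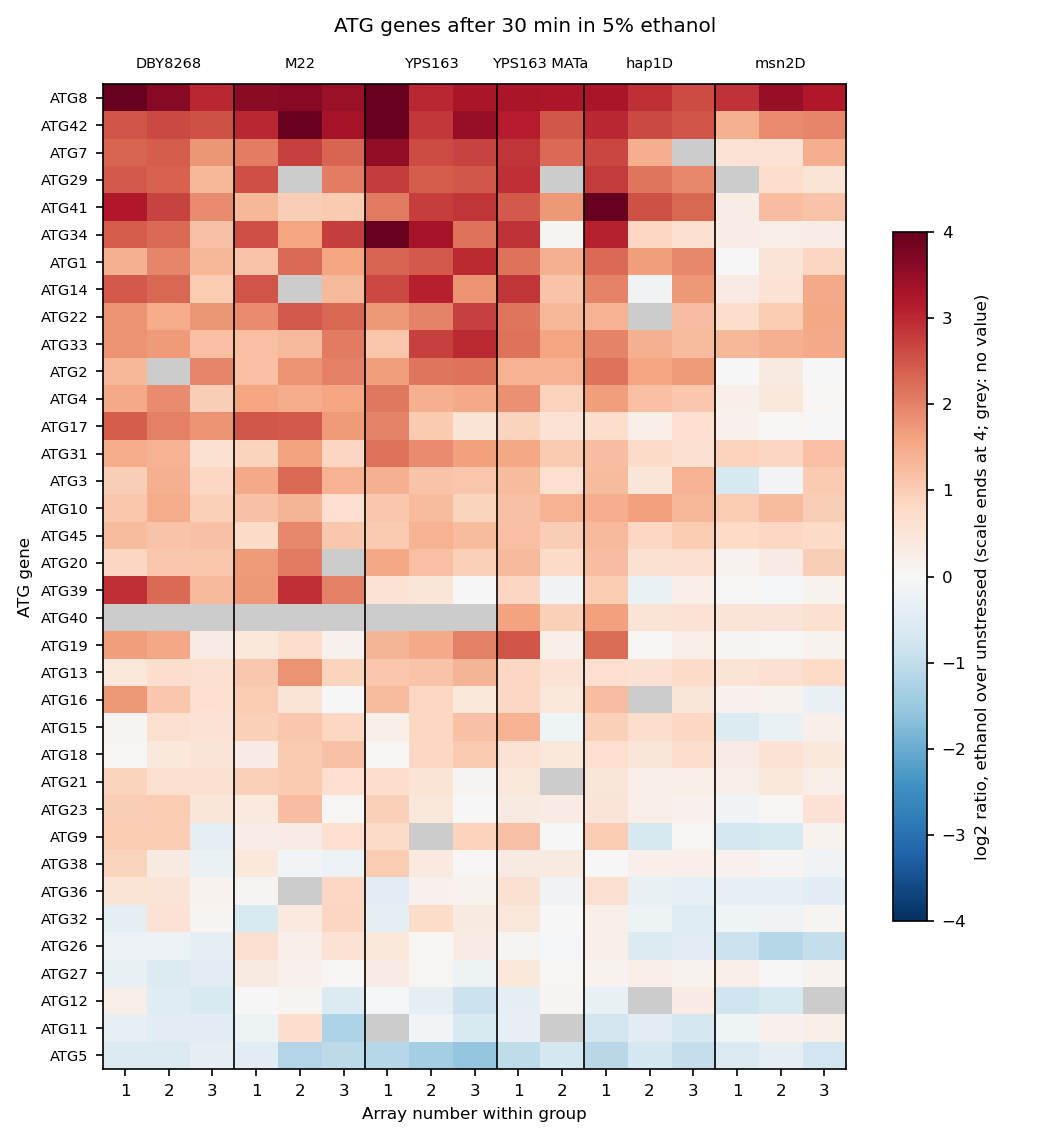
Each cell is the log2 ratio of ethanol over unstressed cells at 30 min for 1 ATG gene (rows, ordered from high to low) on 1 array (columns, by group and array number), red for higher in ethanol, blue for lower and grey for no value, with the colour scale ending at 4. ATG8 is the top row, ATG5 the bottom row, and the msn2D columns are paler than the others for most of the rows in between.

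All 5 genes of the Atg1 kinase and its scaffold rose in DBY8268, M22 and YPS163. ATG1 (YGL180W) encodes the kinase itself. Its ratios were 1.43, 1.96 and 1.32 in DBY8268, 1.15, 2.26 and 1.57 in M22, and 2.33, 2.45 and 2.97 in YPS163. The YPS163 arrays all lay above the others, and the difference from DBY8268 was 1.01 ± 0.36 (SE, adjusted p = 0.0671), not a call. ATG17, the scaffold on which the complex assembles, stood at 2.43, 2.03 and 1.80 in DBY8268, at 2.48, 2.44 and 1.70 in M22 and at 1.98, 1.06 and 0.56 in YPS163. Its YPS163 arrays spread widely and their mean of 1.20 ± 0.72 (SD, n = 3) was the lowest of the 3 strains. ATG29, a partner of Atg17, gave 2.44, 2.35 and 1.34 in DBY8268, 2.57 and 2.04 in M22 (no value on array 2) and 2.79, 2.41 and 2.47 in YPS163. ATG31, which bridges Atg17 and Atg29, gave 1.49, 1.38 and 0.60, then 0.90, 1.60 and 0.85, then 2.17, 1.89 and 1.65 in the same order of strains. Both overlapped between DBY8268 and M22, and the YPS163 arrays of ATG31 lay above all arrays of those strains. The regulatory subunit ATG13 stood at 0.60 ± 0.13 (SD, n = 3) in DBY8268, 1.25 ± 0.48 in M22 and 1.20 ± 0.15 in YPS163. The ATG29 row shares 24 bases with its neighbour SET6, so part of its signal cannot be assigned to 1 gene.

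The ubiquitin-like Atg8 is anchored in the growing membrane and is carried into the vacuole with it. ATG8 (YBL078C) had the highest mean of all ATG genes in 4 of the 6 groups. Its ratios were 4.07, 3.65 and 3.01 in DBY8268, 3.60, 3.63 and 3.45 in M22, and 4.16, 3.03 and 3.27 in YPS163. The DBY8268 mean of 3.58 ± 0.22 (SE, adjusted p = 5.5e-11) is a 11.9-fold rise, and the strains overlapped. The genes that process and conjugate Atg8 rose with it in all 3 strains. ATG7, the activating enzyme shared with Atg12, gave 2.33, 2.42 and 1.77 in DBY8268, 2.06, 2.73 and 2.34 in M22 and 3.54, 2.60 and 2.70 in YPS163. ATG4, the protease that trims Atg8 and later frees it, gave 1.52, 1.90 and 0.97 in DBY8268, 1.57, 1.47 and 1.57 in M22 and 2.11, 1.43 and 1.53 in YPS163. ATG3, the conjugating enzyme, gave 0.97, 1.41 and 0.82, then 1.52, 2.27 and 1.38, then 1.43, 1.15 and 1.12 in that order. The groups overlapped for ATG4 and ATG3, and for ATG7 M22 overlapped both other strains.

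The second conjugation system joins Atg12 to Atg5 and binds Atg16 to form the ligase for Atg8, and its genes split. ATG10, the conjugating enzyme for Atg12, rose in all 6 groups, with 1.11, 1.48 and 0.95 in DBY8268, 1.17, 1.37 and 0.66 in M22 and 1.09, 1.28 and 0.88 in YPS163. ATG16 rose in the 3 strains with means of 1.16 ± 0.53, 0.52 ± 0.50 and 0.84 ± 0.41 (SD, n = 3). The other two members did not rise in any group. ATG12 ranged from -0.87 to 0.33 over the arrays with MSN2 in the YPS163 background and without the block was called only in msn2D, at -0.70 ± 0.23 (SE, adjusted p = 0.0181). ATG5 (YPL149W), whose product receives Atg12, stood at -0.59, -0.57 and -0.39 in DBY8268, at -0.44, -1.16 and -1.05 in M22 and at -1.15, -1.37 and -1.56 in YPS163. Every ATG5 value at 30 min was below 0, and the YPS163 arrays did not overlap those of DBY8268.

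Among the genes for Atg9 vesicles, ATG41 stood apart. Atg41 binds Atg9 and is needed for its traffic. ATG41 gave 3.19, 2.71 and 1.88 in DBY8268, 1.32, 0.98 and 1.04 in M22 and 2.07, 2.77 and 2.87 in YPS163. All M22 arrays lay below all arrays of the other strains, with a difference from DBY8268 of -1.48 ± 0.49 (SE, adjusted p = 0.0539) that missed the threshold. ATG9, the membrane protein of these vesicles, was called only in YPS163, at 0.83 ± 0.35 (SE, adjusted p = 0.0454) on 2 arrays. ATG23, a peripheral partner of Atg9, rose in DBY8268 and M22 (0.83 ± 0.31 and 0.55 ± 0.61, SD, n = 3). ATG27, a membrane protein that helps Atg9 move, fell in DBY8268 by 0.43 ± 0.10 (SE, adjusted p = 0.00089) and was not called elsewhere.

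ATG14 and ATG38 encode the subunits that make the phosphatidylinositol 3-kinase complex specific to autophagy. ATG14, which directs the complex to the site of membrane growth, gave 2.45, 2.30 and 1.02 in DBY8268, 2.52 and 1.30 in M22 (no value on array 2) and 2.64, 3.11 and 1.80 in YPS163. ATG38, a linker in the same complex, stayed between -0.27 and 1.02 on these arrays and was called in none without the block. Of the 4 genes for lipid transfer and lipid binding, ATG2 and ATG20 rose by more than 1 in each of the 3 strains. ATG2, the protein that moves lipids into the growing membrane, gave 1.32 and 1.94 in DBY8268 (no value on array 2), 1.21, 1.79 and 2.01 in M22 and 1.68, 2.13 and 2.17 in YPS163. ATG20, a sorting nexin of the Cvt pathway, gave 0.86, 1.08 and 1.12 in DBY8268, 1.69 and 2.08 in M22 (no value on array 3) and 1.54, 1.20 and 0.94 in YPS163. The M22 arrays of ATG20 lay above all others. ATG18 and ATG21, related proteins that bind the lipid made by the kinase, stayed lower, with means of 0.33 to 0.89 in the 3 strains.

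The scaffold and receptors of selective autophagy did not move as 1 group. In DBY8268 4 of 7 tested genes rose, and in M22 and YPS163 3 of 7 did. These counts leave out ATG45, a receptor for glycogen described below, which rose in all 6 ethanol groups. ATG34, the receptor for alpha-mannosidase, gave 2.41, 2.28 and 1.17 in DBY8268, 2.58, 1.57 and 2.76 in M22 and 4.78, 3.33 and 2.17 in YPS163. ATG33, a protein of the mitochondrial outer membrane linked to mitophagy, gave 1.80, 1.69 and 1.21 in DBY8268, 1.19, 1.29 and 2.09 in M22 and 1.10, 2.74 and 2.97 in YPS163. ATG19, the main Cvt cargo receptor and a relative of Atg34, rose in DBY8268 (1.18 ± 0.75, SD, n = 3) and YPS163 (1.63 ± 0.34) and stood at 0.42 ± 0.27 in M22, where it was not called. ATG39, the receptor for the nuclear envelope and perinuclear ER, rose in DBY8268 and M22, was called in no other group and is described with the strain differences. The scaffold ATG11, the mitophagy receptor ATG32 and the peroxisome receptor ATG36 were called in none of the 3 strains. ATG40, a receptor for cortical ER, stood at 1.62 and 0.95 in YPS163 MATa, at 1.65, 0.56 and 0.57 in hap1D and at 0.53, 0.53 and 0.64 in msn2D, and rose in all 3.

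Genes for the last steps, inside the vacuole, rose in nearly every group. ATG42, a vacuolar carboxypeptidase, gave 2.52, 2.64 and 2.55 in DBY8268, 3.00, 4.13 and 3.33 in M22 and 5.70, 2.82 and 3.48 in YPS163. All DBY8268 arrays lay below all arrays of the wild strains. ATG22, which exports amino acids from the vacuole, gave 1.79, 1.49 and 1.76, then 1.89, 2.44 and 2.29, then 1.74, 1.99 and 2.72 in that order. ATG15, the lipase that opens autophagic bodies, was smaller and rose in M22 and YPS163 (0.96 ± 0.13 and 0.75 ± 0.48, SD, n = 3) but was not called in DBY8268 (0.45 ± 0.29). ATG45, a receptor for glycogen, had close means in DBY8268, M22 and YPS163 (1.19, 1.26 and 1.24), though its M22 arrays were spread. It gave 1.27, 1.13 and 1.18 in DBY8268, 0.78, 1.91 and 1.08 in M22 and 1.05, 1.40 and 1.28 in YPS163. ATG26, a sterol glucosyltransferase with no required role in bulk autophagy of this yeast, had no common direction: it rose in M22 (0.47 ± 0.24, SD, n = 3), fell in msn2D and was not called in the other 4 groups.

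To ask how far the ATG response depended on MSN2, msn2D was compared with YPS163 MATa. The msn2D titles name YPS163, not YPS163 MATa, and the comparison with YPS163 is given further below. They give no mating type or ploidy, so a difference in either cannot be told apart from the loss of MSN2. Only ATG4 and ATG26 were called lower among 33 tested ATG genes, and 0 were called higher, where 4.08% of all rows were lower and 4.13% higher (8.21% in either direction). The differences leaned one way all the same: 32 of 33 were below 0, the exception was ATG5, and 9 were at -1 or lower. The ATG median was -0.65 and the median of all tested rows 0.06. Without array 1 of YPS163 MATa, the array on which most ATG genes were high, the ATG median was -0.27, and without array 2 it was -0.83. At an unadjusted p under 0.05, 10 ATG genes were lower and 0 higher. The shares of all rows below 0, at -1 or lower, or under this unadjusted p were not worked out, so these counts have no background beside them. Both calls were lost without array 1 of YPS163 MATa, and 5 genes were called without array 2.

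ATG4 stood at 1.84 and 0.93 in YPS163 MATa and at 0.19, 0.45 and 0.07 in msn2D. The groups did not overlap, and the difference was -1.15 ± 0.33 (SE, adjusted p = 0.0411), and ATG4 was not called in msn2D itself. Without array 1 of YPS163 MATa it was -0.69 (adjusted p = 0.583). ATG26 stood at 0.11 and -0.09 in YPS163 MATa and at -0.86, -1.14 and -0.94 in msn2D. Here the groups again did not overlap, and msn2D lay below 0 where YPS163 MATa lay around 0, a difference of -0.99 ± 0.21 (SE, adjusted p = 0.00607). Without array 1 of YPS163 MATa it was -0.89 (adjusted p = 0.119).

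With so few YPS163 MATa arrays, the msn2D arrays were also set against all 8 ethanol arrays of YPS163, YPS163 MATa and hap1D. Every msn2D array lay below every one of these for 9 of 32 ATG genes, where 8.63% of all rows did so, and above for 0 of 32, where 9.4% of all rows did. The 9 genes were ATG1, ATG2, ATG4, ATG16, ATG17, ATG26, ATG41, ATG42 and ATG45. Without the arrays numbered 1 of YPS163 MATa and hap1D the count was again 9 of 32 (8.84% of all rows). Leaving out arrays with MSN2 cannot lower this count over the same genes, so it is no check on those arrays. Against YPS163 MATa alone it was 16 of 33 (20.0% of all rows) lower and 0 of 33 (30.4%) higher.

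Values of these genes show the gap. ATG2 gave 1.40 and 1.39 in YPS163 MATa, 2.18, 1.59 and 1.69 in hap1D and -0.03, 0.37 and 0.00 in msn2D. ATG1 gave 2.16 and 1.43 in YPS163 MATa, 2.25, 1.68 and 1.91 in hap1D and 0.00, 0.52 and 0.85 in msn2D. Its difference of -1.34 ± 0.41 (SE, adjusted p = 0.0504) just missed the threshold, as did that of ATG7 at -1.69 ± 0.52 (adjusted p = 0.0542). ATG41 gave 2.46 and 1.73 in YPS163 MATa, 4.01, 2.56 and 2.31 in hap1D and 0.29, 1.23 and 1.14 in msn2D. ATG29 could not be tested, with 2.91 on 1 YPS163 MATa array, but its 3 hap1D arrays stood at 2.80, 2.14 and 1.92 against 0.69 and 0.54 in msn2D. For ATG1, ATG2, ATG29 and ATG41 the msn2D values lay below all others of the YPS163 background, whereas for ATG7 1 hap1D array, at 1.44, reached the highest msn2D array, at 1.45.

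A second set of genes rose without MSN2. ATG8 stood at 3.26 and 3.24 in YPS163 MATa, 3.27, 2.93 and 2.60 in hap1D and 2.90, 3.47 and 3.21 in msn2D. The arrays overlapped, the rise in msn2D was 9.15-fold, and the difference from YPS163 MATa was -0.06, with a 95% interval from -0.79 to 0.68. ATG13 differed by -0.04 (-0.45 to 0.37), ATG10 by -0.20 (-1.61 to 1.20) and ATG33 by -0.46 (-1.34 to 0.42), and differences within these intervals could not be detected here. Of the 15 genes that rose in all 5 groups with MSN2, 11 also rose in msn2D, and ATG1, ATG2, ATG4 and ATG14 did not pass the test there. The matching share of all rows was not worked out. Among the 11, the msn2D calls of ATG7, ATG10, ATG20 and ATG41 were lost in 4 or 5 alternative fits each. Some genes rose in msn2D yet stood lower than with MSN2: ATG42 gave 3.13 and 2.49 in YPS163 MATa and 1.43, 1.90 and 1.96 in msn2D, without overlap.

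For some genes the arrays with MSN2 were far apart. ATG34 stood at 2.89 and 0.11 in YPS163 MATa, at 3.07, 0.82 and 0.64 in hap1D and at 0.31, 0.26 and 0.29 in msn2D. ATG19 stood at 2.52 and 0.23, at 2.22, 0.08 and 0.22, and at 0.11, 0.04 and 0.15 in the same order. In both, array 1 of YPS163 MATa and of hap1D was far above the other arrays of its group. ATG14 gave 2.85 and 1.15 in YPS163 MATa, 1.97, -0.14 and 1.73 in hap1D and 0.32, 0.59 and 1.51 in msn2D, with overlap. What part array 1 has in these differences was not tested.

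The choice of reference moved the count. By title msn2D is a deletion in YPS163, whereas hap1D is titled as a deletion in YPS163 MATa. The labels do not state the mating type or ploidy of YPS163, and the msn2D titles give neither. With the 3 arrays of YPS163 as reference, 13 of 35 ATG genes were called lower in msn2D and 1 higher. Of all rows, 8.53% were lower and 8.55% higher (17.1% in either direction). Among the lower genes were ATG1 (-2.13 ± 0.36, SE, adjusted p = 0.00074) and ATG2 (-1.88 ± 0.44, adjusted p = 0.0063), and ATG5 was the gene called higher (0.78 ± 0.18, adjusted p = 0.0065). With hap1D as reference, a comparison added after the data had been seen, 6 of 36 were called lower and 0 higher. Of all rows, 6.02% were lower and 5.3% higher (11.3% in either direction). The lower genes included ATG1, ATG2, ATG4, ATG26 and ATG41, and the ATG median was -0.37. Without array 1 of hap1D 0 of 32 were called (5.4% of all rows) and the median was -0.105. The hap1D reference differs from msn2D at both deleted genes. The list of 16 known Msn2 targets used as a check had 13 of 15 tested genes called lower in msn2D than in YPS163 MATa, with a median of -4.14. MSN4, the paralogue of MSN2, was at 0.00, 0.24 and -0.15 in msn2D.

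**Figure D2:**
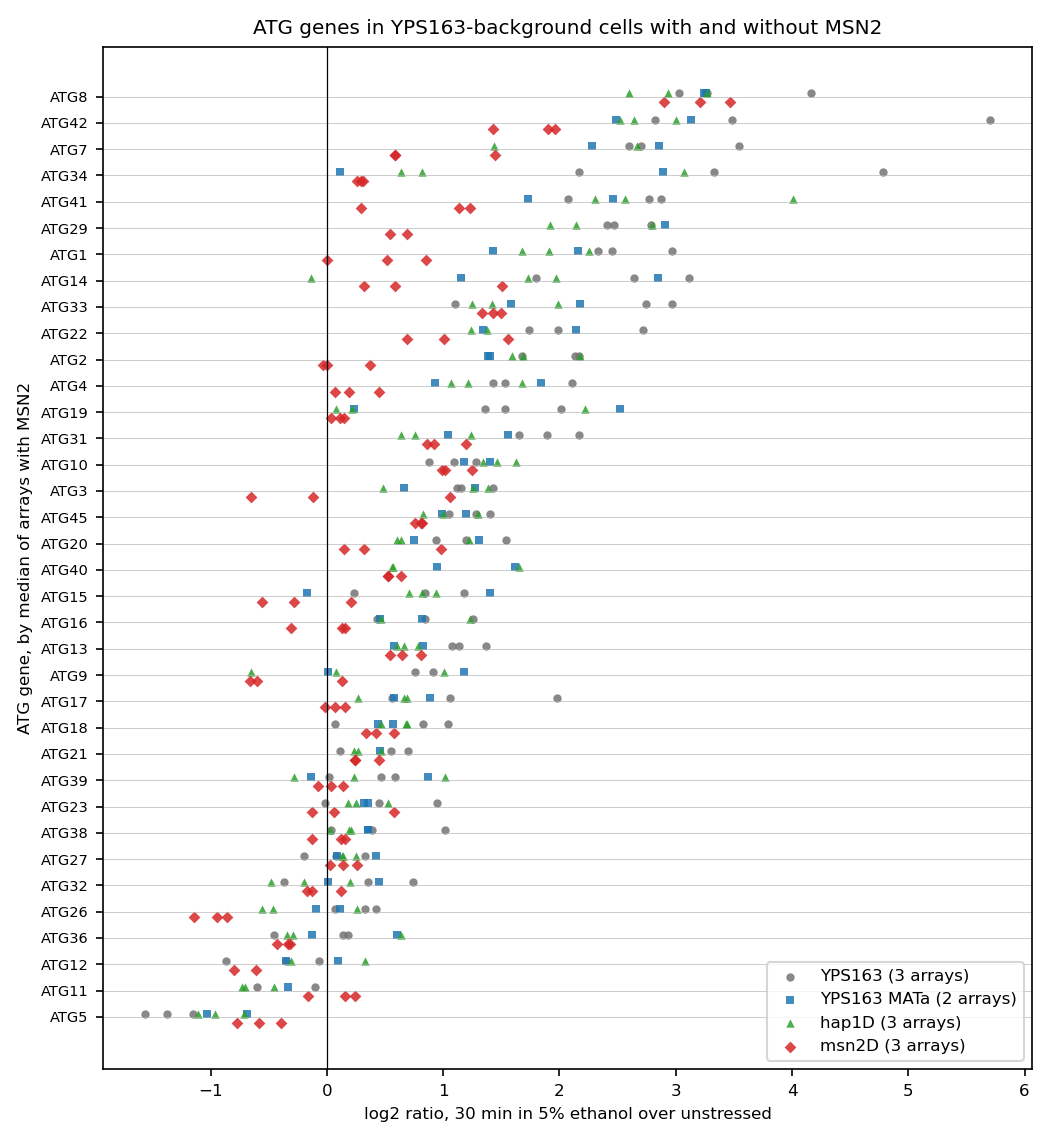
Points are the log2 ratios of ethanol over unstressed cells at 30 min (horizontal axis) of each ATG gene (vertical axis, ordered by the median of the arrays with MSN2), with 3 arrays for YPS163 (grey circles), 2 for YPS163 MATa (blue squares), 3 for hap1D (green triangles) and 3 for msn2D (red diamonds). The msn2D points of ATG1, ATG2, ATG4 and ATG26 lie left of all others, while those of ATG8, ATG10 and ATG13 lie among them.

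Loss of HAP1 changed 0 of 33 tested ATG responses by the limma test, also 0 at an unadjusted p under 0.05, where 0.0926% of all rows were called against YPS163 MATa (0.0556% higher and 0.0371% lower). The largest differences were those of ATG41 at 0.86 (95% interval -0.28 to 2.01) and ATG14 at -0.81 (-2.35 to 0.73). In log phase, hap1D over YPS163 MATa, 0 of 35 ATG genes were called and 0 had an unadjusted p under 0.05 (2.94% of all rows were called). The means farthest from 0 there were -0.49 (ATG3) and 0.49 (ATG22). With arrays scaled to 1 spread, 5 were called. The hap1D and msn2D comparisons share the YPS163 MATa arrays.

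The ethanol responses of the wild strains differed from that of DBY8268 for few ATG genes, and the share called was near that of all rows. For M22, ATG13, ATG20, ATG26 and ATG27 were higher among 35 tested and 0 were lower, where 9.35% of all rows were higher and 2.79% lower. For YPS163, ATG13, ATG26, ATG27 and ATG42 were higher and ATG5 and ATG39 lower (10.4% and 5.51% of all rows). Both comparisons share the DBY8268 arrays. With the replicate block for the 3 strains all of these calls held, ATG18 (0.51, adjusted p = 0.0215) was added as higher and ATG16 (-0.64, adjusted p = 0.0342) as lower in M22, and ATG17 as lower in YPS163 (-0.89, adjusted p = 0.0287). Fitted on the arrays of the contrast alone, 0 ATG genes were called for M22, and ATG39 alone for YPS163.

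ATG39 (YLR312C) gave the widest strain difference. Its ratios were 2.93, 2.25 and 1.29 in DBY8268, 1.72, 2.92 and 2.01 in M22 and 0.59, 0.47 and 0.02 in YPS163. YPS163 lay below both other strains without overlap, by -1.80 ± 0.40 (SE, adjusted p = 0.00513) against DBY8268 and -1.86 ± 0.40 (adjusted p = 0.00794) against M22, and this was the only ATG gene called between the wild strains without the block, where 3.9% of all rows were lower and 2.06% higher (5.96% in all). With the block ATG17 was also called lower in YPS163 than in M22 (-1.01, adjusted p = 0.0296). The M22 comparison of ATG39 had an adjusted p of 0.0505 without array 2 of M22. On the other arrays of the YPS163 background ATG39 was low too, with 0.87 and -0.14 in YPS163 MATa, 1.02, -0.28 and 0.23 in hap1D and 0.04, -0.08 and 0.14 in msn2D. In log phase YPS163 over DBY8268 it stood at 0.06 and 0.26, with no value on array 1, and the test did not call it.

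Smaller differences were called for 6 other genes. ATG13 stood at 0.45, 0.70 and 0.64 in DBY8268, at 1.09, 1.79 and 0.88 in M22 and at 1.08, 1.14 and 1.37 in YPS163, a difference of 0.66 ± 0.18 (SE, adjusted p = 0.0178) for M22 and 0.60 ± 0.18 (adjusted p = 0.0262) for YPS163. ATG26 stood at -0.24, -0.25 and -0.40 in DBY8268, at 0.64, 0.20 and 0.58 in M22 and at 0.42, 0.07 and 0.33 in YPS163, a difference of 0.77 ± 0.19 (adjusted p = 0.0088) and 0.57 ± 0.19 (adjusted p = 0.0428). ATG27 stood at -0.31, -0.56 and -0.43, at 0.36, 0.18 and 0.04, and at 0.33, 0.08 and -0.20 in the same order, a difference of 0.63 ± 0.14 (adjusted p = 0.00537) and 0.50 ± 0.14 (adjusted p = 0.0196). For all 3 genes every array of both wild strains lay above every DBY8268 array. ATG20 was higher in M22 than in DBY8268 by 0.86 ± 0.26 (adjusted p = 0.0318). ATG5 was lower in YPS163 than in DBY8268 by 0.84 ± 0.18 (adjusted p = 0.00367), from the values given above. The higher ATG42 response of YPS163, 1.43 ± 0.46 (adjusted p = 0.0382), rested on array 1 at 5.70 and was 0.58 (adjusted p = 0.178) without it.

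Before ethanol was added, the ATG genes called between M22 and DBY8268 were all lower in M22. Of 31 tested genes 9 were lower and 0 higher, where 17.7% of all rows were lower and 12.3% higher. In either direction 29.0% of the tested ATG genes and 30.0% of all rows were called. Of the ATG means, 25 of 31 were below 0, and the matching share of all rows was not worked out. The 9 were ATG8, ATG15, ATG18, ATG20, ATG22, ATG29, ATG33, ATG36 and ATG41. ATG33 stood at -1.31, -1.31 and -1.40, a mean of -1.34 ± 0.27 (SE, adjusted p = 0.0006). ATG36 stood at -1.67, -0.80 and -1.16 (-1.21 ± 0.22, adjusted p = 0.0003). ATG41 stood at -0.79, -1.17 and -1.65 (-1.20 ± 0.35, adjusted p = 0.0121). ATG29 stood at -1.54, -0.95 and -0.66 (-1.05 ± 0.24, adjusted p = 0.0033). All arrays of these genes were below 0. ATG8 was lower on every array too, at -0.75, -0.65 and -0.54 (adjusted p = 0.0332). The other 4 means lay between -0.88 (ATG22, with -1.48, -0.80 and -0.37) and -0.45 (ATG18, with -0.44, -0.47 and -0.45), with ATG15 at -0.25, -1.07 and -0.74 and ATG20 at -0.45, -0.53 and -0.45. Leaving out 1 array gave 3 or 4 calls in place of 9, and ATG33 and ATG36 were called in each of those fits.

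In YPS163 over DBY8268, 6 of 33 tested genes were lower and ATG5 was higher, where 14.3% of all rows were lower and 8.62% higher. In either direction 21.2% of the tested ATG genes were called, near the 22.9% of all rows. The lower genes were ATG2, ATG13, ATG15, ATG22, ATG29 and ATG42, of which ATG15, ATG22 and ATG29 were also lower in M22. ATG29 stood at -1.35 and -2.04 with no value on array 2, and ATG42 at -1.10, -0.59 and -1.17. ATG15 stood at -0.83, -0.40 and -1.25, and ATG13 at -0.45 and -0.51 with no value on array 2. These were below 0 on every array with a value. ATG2, at -1.57, 0.53 and -2.12, and ATG22, at -2.03, 0.42 and -1.37, changed sign on array 2. On that array 23 of 31 ATG genes were above 0, against 3 of 31 and 4 of 34 on arrays 1 and 3. The matching shares of all rows were not worked out. The median of all rows was 0.06 on array 2 and -0.07 and -0.06 on arrays 1 and 3. Without array 2, 12 genes were called, 11 of them lower; without array 1, 1 was called and without array 3, 0. ATG5 stood at 0.41, 0.49 and 0.78, all above 0, a mean of 0.56 ± 0.13 (SE, adjusted p = 0.00345) on the opposite side from its lower ethanol response in this strain.

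**Figure D3:**
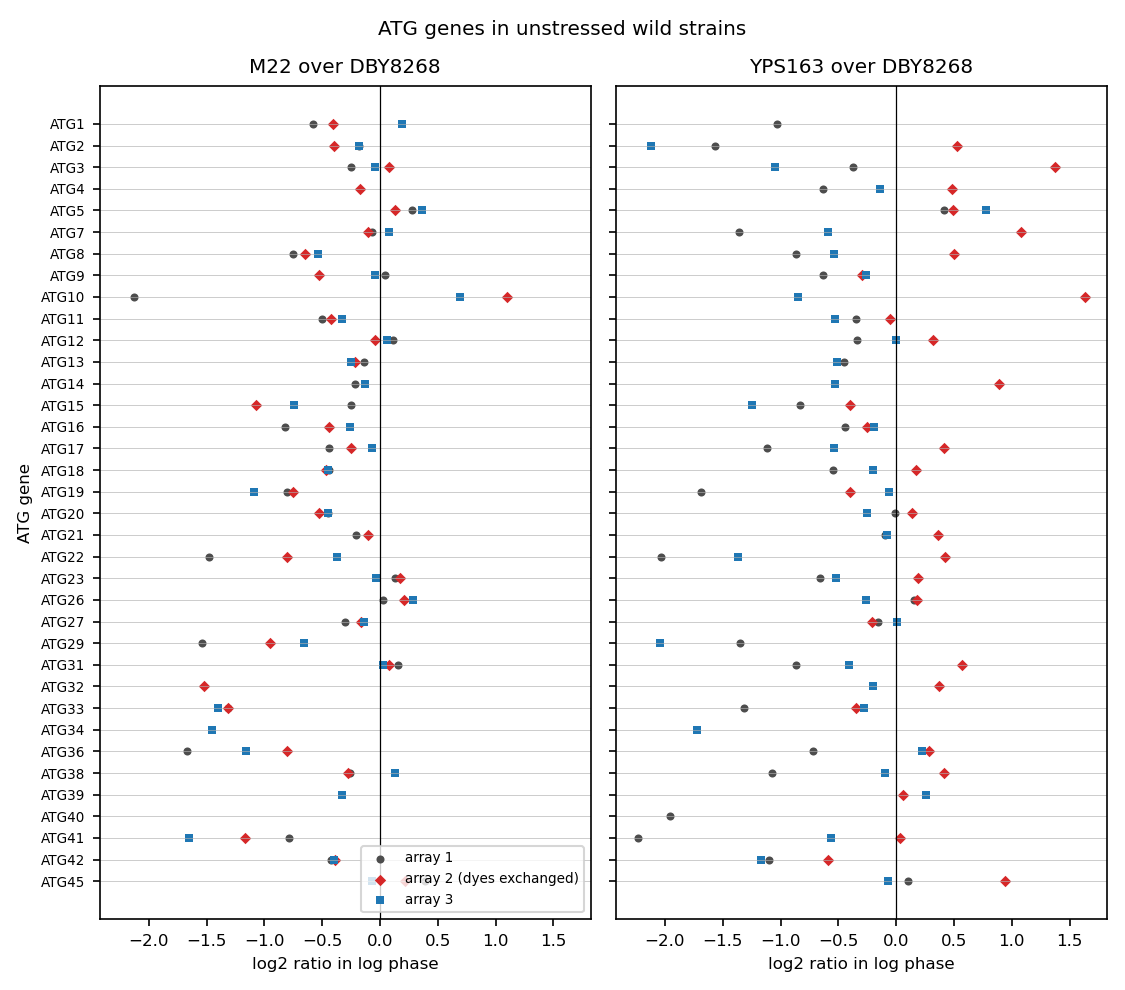
Points are log2 ratios in log phase without ethanol (horizontal axes) of each ATG gene (vertical axis) for M22 over DBY8268 (left) and YPS163 over DBY8268 (right), with arrays 1, 2 and 3 as circles, diamonds and squares. Most points of M22 and of arrays 1 and 3 of YPS163 lie below 0, and most diamonds of YPS163 lie above 0.

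Adding the log-phase ratio to the difference in response gives, with no test, where a wild strain stood relative to DBY8268 after 30 min. For ATG41 in M22 both terms were negative, -1.20 in log phase and -1.48 in response, a sum of -2.68. For ATG29 in YPS163 the sum was -1.18, for ATG33 in M22 -1.38, and for ATG39 in YPS163 -1.64. ATG26 and ATG27 in M22 summed to 0.95 and 0.43, and ATG42 in YPS163, lower in log phase and higher in response, to 0.48. The sign of this ATG42 sum rests on array 1 of YPS163 in ethanol. Without that array the response term was 0.58, smaller in size than the log-phase ratio of -0.95. For ATG5 in YPS163 the terms 0.56 and -0.84 summed to -0.28.

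The time course had 1 array per strain and time, so its values carry no test. At 15 min 20 of 35 ATG genes stood at 1 or higher in DBY8268 (12.6% of all rows), 17 of 34 in M22 (15.3%) and 14 of 34 in YPS163 (13.6%). At 30 min the counts were 20 of 35, 19 of 35 and 22 of 34 (14.9%, 14.5% and 15.0%), at 45 min 18 of 35, 21 of 35 and 22 of 35 (11.9%, 13.9% and 14.1%), and at 60 min 19 of 34, 14 of 34 and 20 of 31 (14.1%, 14.6% and 16.3%). The ATG median of YPS163 went from 0.82 at 15 min through 1.18 and 1.40 to 1.79 at 60 min. In DBY8268 it stayed between 1.02 and 1.27, and in M22 it was highest at 45 min (1.29) and lowest at 60 min (0.81).

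Individual genes followed different courses. ATG41 was highest at 15 min in all 3 strains, at 5.74, then 3.19, 4.56 and 3.77 in DBY8268, at 4.58, 1.32, 1.98 and 2.68 in M22 and at 4.33, 2.07, 0.93 and 2.42 in YPS163. ATG8 was already high at 15 min, with 3.29, 4.07, 3.59 and 2.74 in DBY8268, 3.99, 3.60, 3.60 and 2.62 in M22 and 3.94, 4.16, 3.78 and 3.44 in YPS163, and was lowest at 60 min in each strain. ATG29 was highest at 60 min in DBY8268 (2.16, 2.44, 2.62 and 3.15) and M22 (2.36, 2.57, 2.83 and 3.76) but not in YPS163 (2.79, 2.67 and 2.31 from 30 min on). ATG5 started near 0 and went down, with 0.46, -0.59, -1.29 and -1.50 in DBY8268, 0.08, -0.44, -1.06 and -0.94 in M22 and -0.49, -1.15, -1.51 and -1.26 in YPS163.

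ATG39 was early in DBY8268 (2.66, 2.93, 2.08 and 0.68) and in M22 (2.67, 1.72, 1.30 and 0.40), while YPS163 showed 0.41, 0.59, 1.19 and 0.91. By 60 min the 3 strains were within 0.40 to 0.91. ATG19 climbed at each time in YPS163 (0.25, 1.36, 2.71 and 3.22) and stayed between 1.31 and 1.67 in DBY8268 and between 0.42 and 1.08 in M22. In YPS163 ATG9 (-0.64, 0.76, 1.64 and 1.99), ATG16 (0.82, 1.26, 1.60 and 2.31), ATG14 (1.15, 2.64, 2.71 and 3.20) and ATG33 (0.06, 1.10, 1.56 and 2.36) also climbed at each step. In DBY8268 and M22 ATG14 and ATG16 were lower at 60 min than at 45 min (0.57 and 0.66 for ATG14). ATG10 in DBY8268 stood at -1.48 at 60 min after 1.05, 1.11 and 0.93, a single array value.

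**Figure D4:**
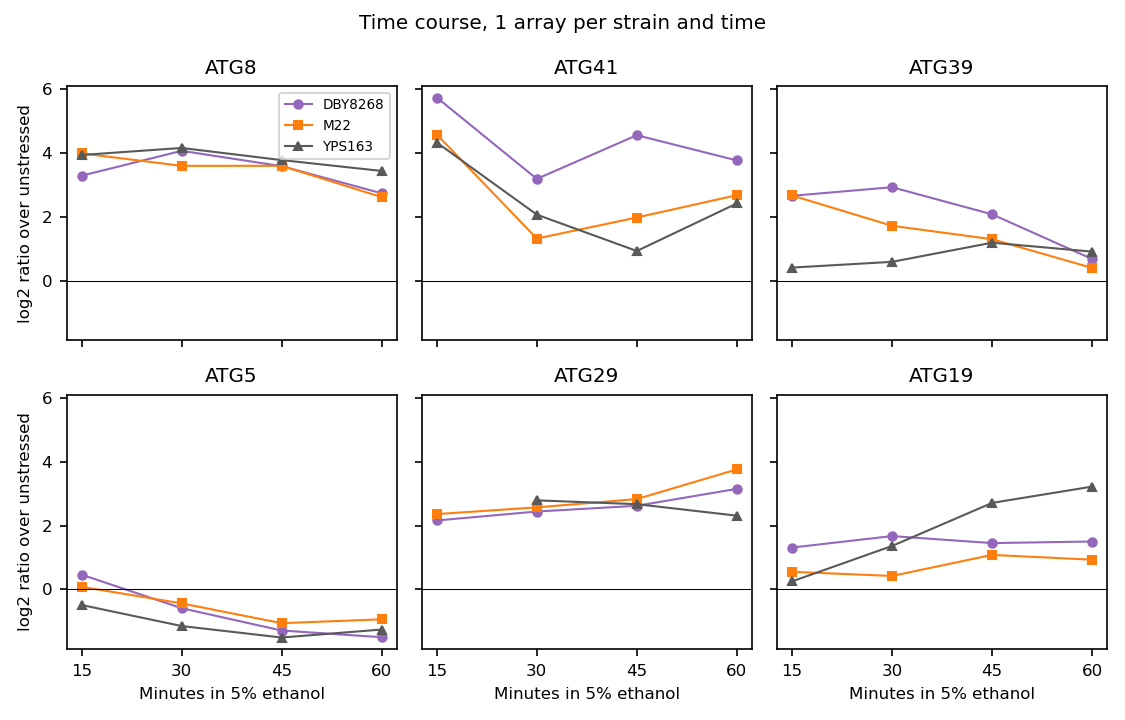
Lines join the log2 ratios of ethanol over unstressed cells (vertical axis) at 15, 30, 45 and 60 min (horizontal axis) for DBY8268 (purple circles), M22 (orange squares) and YPS163 (grey triangles), 1 array per strain and time, for 6 ATG genes. ATG41 is highest at 15 min in all 3 strains, ATG39 is low in YPS163 at 15 and 30 min, and ATG19 climbs in YPS163 to 3.22.

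Partners outside the ATG names were followed through a list of 58 genes for the kinase partners, fusion, vacuolar proteases and Cvt cargo, signalling, regulators and vesicle supply. In DBY8268 23 of 53 tested genes rose and 7 fell (28.6% and 31.0% of all rows). In M22 30 of 54 rose and 8 fell (32.3% and 29.7%), and in YPS163 25 of 53 and 6 (30.4% and 30.0%). In YPS163 MATa 22 of 52 rose and 6 fell (24.3% and 27.6%), and in hap1D 23 of 55 and 9 (26.7% and 27.7%). In msn2D 28 of 54 rose and 6 fell (21.0% and 22.4%). Of the 8 vacuolar proteases and Cvt cargo genes, 6 rose in DBY8268, 7 in M22, 6 in YPS163 and 6 in msn2D, and APE3 fell in DBY8268 and msn2D. The cargo that Atg19 and Atg34 carry rose: APE1, the aminopeptidase delivered by the Cvt pathway, by 2.78 ± 0.35 (SE) in DBY8268, 3.38 ± 0.42 in YPS163 MATa and 2.35 ± 0.35 in msn2D, and AMS1, alpha-mannosidase, by 3.66 ± 0.41, 3.62 ± 0.50 and 1.74 ± 0.41. The protease genes PEP4 and PRB1 rose with and without MSN2 (1.87 ± 0.11 and 1.84 ± 0.18 in msn2D, 2.04 ± 0.14 and 1.98 ± 0.22 in YPS163 MATa). In log phase PEP4 was lower than in DBY8268 in M22 (-0.96 ± 0.11) and in YPS163 (-0.97 ± 0.11), on the same side as the vacuolar genes ATG15 and ATG22.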

How the data were processed

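The authors deposited 1 table of ratios, read here as log2 from values of both signs with array medians near 0; no source used here gives the base, normalization, background correction or spot filter. The direction of each group was read from the values, and the log-phase hap1D ratios were turned so that HAP1 stood at -3.47 ± 0.61 (SD, n = 2). In limma 3.58.1 (R 4.3.3; tables and plots in Python 3.11.15), lmFit fitted 1 mean per group to 26 arrays with a shared, moderated spread per row (eBayes). A row was tested with at least 2 arrays per group; Benjamini-Hochberg adjustment ran over all rows of each of 14 contrasts, with calls at an adjusted p under 0.05. SD is over arrays, SE from the fit. All 36 ATG rows were tested somewhere and 14 had a value on all 26 arrays. Array numbers paired the ethanol arrays of DBY8268, M22 and YPS163: all 9 same-numbered pairs had deviations from their group means correlated at 0.24 to 0.60, and 0 of 18 other pairs over 0.1. The labels do not say what a number marks beyond the exchange of dyes on array 2. The procedure was tested on simulated data. Values per array are given for ATG genes called in msn2D minus YPS163 MATa, in a strain difference or in log phase, for those called the same way with a mean of at least 1 in size in DBY8268, M22 and YPS163, and for ATG8; genes given beyond that rule were chosen after their values were seen. The members and lists were chosen with earlier results of these data known. Alternatives changed the handling of array 3 of YPS163 MATa, scaling, centring, arrays fitted, the replicate block, rows with missing values, robust eBayes, the reference and each array in turn. A description of promoters was planned and not run. The msn2D minus YPS163 MATa comparison of the signalling genes is not reported here.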

Additional observations from a re-analysis of the deposited data

Results flagged for a closer look

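These ATG genes are listed because the limma test of a difference between 2 responses called them (adjusted p under 0.05). Groups of 3 arrays were too small for a test of single outlying arrays. Between msn2D and YPS163 MATa they were ATG4 (-1.15) and ATG26 (-0.99). Between M22 and DBY8268 they were ATG13 (0.66), ATG20 (0.86), ATG26 (0.77) and ATG27 (0.63). Between YPS163 and DBY8268 they were ATG5 (-0.84), ATG13 (0.60), ATG26 (0.57), ATG27 (0.50), ATG39 (-1.80) and ATG42 (1.43), and between YPS163 and M22 ATG39 (-1.86). ATG26 is called in 3 of these comparisons, lower where MSN2 is deleted and higher in both wild strains; its call held under 14 of 17, 14 of 16 (M22) and 5 of 16 (YPS163) alternatives. ATG39 against DBY8268 was called under all 15 alternatives in which it was tested, with -2.23 to -1.24, while ATG42 rested on 1 array.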

How the results depend on the processing

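Over single ATG genes and alternatives, 5783 results stayed on their side of the threshold, 268 calls were lost, 114 were gained and 0 reversed. Precision is limited by 2 or 3 arrays per group. Restricted to rows with a value on all arrays (14 ATG genes), 11, 11, 10, 9, 9 and 9 genes were called in the responses of DBY8268, M22, YPS163, YPS163 MATa, hap1D and msn2D, 1 in msn2D minus YPS163 MATa, 0 in YPS163 minus M22, and 4 and 3 in log phase (M22, YPS163); fewer genes were tested. With arrays scaled to 1 spread, 12 were called in YPS163 MATa, 1 in msn2D minus YPS163 MATa, 0 in M22 minus DBY8268, 1 in YPS163 minus DBY8268, 14 in M22 log phase and 5 in hap1D log phase. With array 3 of YPS163 MATa as deposited, 10 were called in msn2D, 1 in msn2D minus YPS163 MATa, 1 in M22 minus DBY8268, 2 in YPS163 minus DBY8268, and 3 and 4 in log phase (M22, YPS163). Msn2D minus YPS163 MATa gave 4 with array 3 moved, 4 with centred arrays, 5 with ethanol arrays alone, 14 against YPS163, 6 against hap1D and 0 against hap1D without its array 1. Fitted on the arrays of each contrast, M22 minus DBY8268 gave 0, YPS163 minus DBY8268 1, YPS163 minus M22 0 and YPS163 log phase 0; with ethanol arrays alone YPS163 minus DBY8268 gave 2. The cause was not tested.

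Leaving out single arrays gave 23 to 27 (DBY8268), 22 to 25 (M22), 24 to 25 (YPS163), 11 to 19 (YPS163 MATa), 17 to 24 (hap1D) and 9 to 11 (msn2D) called responses, 0 to 5 for msn2D minus YPS163 MATa, 0 to 0 for hap1D minus YPS163 MATa, 2 to 5, 3 to 6 and 0 to 3 for M22 minus DBY8268, YPS163 minus DBY8268 and YPS163 minus M22, and 3 to 4, 0 to 12 and 0 to 0 in log phase (M22, YPS163, hap1D).

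Over all groups 15 of 40 same-numbered ethanol pairs and 2 of 9 log-phase pairs had deviations correlated over 0.1. Arrays 1 and arrays 2 of YPS163 MATa and hap1D also deviated together (0.63 and 0.47, against -0.50 and -0.63 for the crossed pairs). With 2 arrays, the deviations of YPS163 MATa mirror each other. Same-numbered arrays of YPS163 MATa and msn2D stood at -0.23 and -0.04, and those of hap1D and msn2D at -0.14, 0.09 and 0.42. With the replicate block for DBY8268, M22 and YPS163, added after the data had been seen, YPS163 minus M22 gave 2 calls, and no call in these strains or their differences was lost. With 1 replicate block over all ethanol or all log-phase arrays, YPS163 minus M22 gave 2 calls, YPS163 log phase 4 and hap1D minus YPS163 MATa 0. For msn2D minus YPS163 MATa this block gave 3 calls, where the same arrays without it gave 5.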
